A study of Bos taurus with 90 samples.

Results

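HSD17B6 was 1 of the 24616 genes counted in 90 liver RNA-Seq libraries of beef steers, and it was identified in the counts as ENSBTAG00000011720. It was chosen from the comparison of low and high RFI Holstein-Friesian steers on the first high-concentrate diet, so that comparison is described below without a test. Residual feed intake (RFI) is the gap between the feed an animal eats and the feed predicted from its weight and growth, and a low value marks an efficient animal. Steers were Charolais (CH), a beef breed, or Holstein-Friesian (HF), a dairy breed, all were allowed feed ad libitum, and RFI was ranked within breed in each diet phase.

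The phases followed each other in time, so diet, age and season cannot be told apart. In high-concentrate phase 1 (H1) the feed was mostly rolled barley (860 g/kg), with soya bean meal and molasses at 60 g/kg each, a mineral and vitamin mix at 20 g/kg, and a limited amount of grass silage. In the zero-grazed grass phase (ZG) cut grass was offered, and in high-concentrate phase 2 (H2) the H1 feed was given again. The CH libraries numbered 9 low and 11 high RFI in H1, 3 low and 3 high RFI in ZG, and 9 low and 8 high RFI in H2. The HF libraries numbered 7 low and 9 high RFI in H1, 10 low and 8 high RFI in ZG, and 5 low and 8 high RFI in H2. Liver was sampled by biopsy, a piece of tissue that holds hepatocytes with other liver cells, so fewer cells of a type and less RNA per cell cannot be told apart.

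HSD17B6 belongs to the short-chain dehydrogenase/reductase enzymes, which move hydrogen between a substrate and the cofactor NAD. It oxidises 3-alpha-androstanediol, an inactive product of dihydrotestosterone, back towards the active androgen, and it can also convert androsterone to its epimer and oxidise retinol. Its known site of high expression is the liver, where androgens are both inactivated and reactivated, and all animals here were castrated males. In the RefSeq annotation of the bovine assembly ARS-UCD2.0 its protein-coding neighbours are SDR9C7 and RDH16, enzymes of the same family, on one side beyond an unnamed locus, and PRIM1, a DNA primase subunit, on the other. Positions are not given, because the counts were made on another assembly, UMD3.1. Counts were of uniquely mapped reads, and whether reads of the opposite strand were kept apart was not stated, so reads shared with a close relative or an antisense gene would not be seen.

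HSD17B6 was abundant and varied less from steer to steer than most genes tested. It received between 8284 and 74913 reads per library, in libraries whose total counts ranged from 9097695 to 63621304 with a median of 18858293. Counting error alone would give a coefficient of variation of 1.10% at the lowest of these counts. Levels below are CPM, a gene's count scaled to one fixed library size, after trimmed mean of M-values (TMM) scaling, in which the total of each library is multiplied by a factor that places the bulk of genes at the same level. Over all 90 libraries the level ran from 676 CPM through a median of 1034 CPM to 1549 CPM, a 2.29-fold range. Within the 12 groups the SD of its log2 CPM was 0.21, and only 8.79% of the 13945 genes tested across all groups had a smaller one. The median within-group SD over those genes was 0.39. This SD includes counting noise, which is larger in genes with few reads. The biological coefficient of variation from edgeR, which leaves counting noise out, was 15.8% for HSD17B6 against a median of 24.1%, and 14.2% of genes had a smaller one.

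With TMM scaling, the lowest mean of the 12 groups was that of low RFI HF steers in H1 and the highest that of low RFI CH steers in H2. In the first group the 7 libraries ran from 728 CPM through a median of 824 CPM to 1046 CPM (mean 828 ± 107 CPM, SD, n = 7). In the second the 9 libraries ran from 1048 CPM through a median of 1137 CPM to 1270 CPM (mean 1149 ± 75.8 CPM, SD, n = 9). On the TMM scale the highest library of the first group lay just below the lowest of the second. Without the TMM factor their means were 950 and 993 CPM and their ranges overlapped, and the ends of the order were then high RFI CH steers in ZG (918 CPM) and high RFI HF steers in H1 (1171 CPM). They were picked for their rank and differ in breed, phase and outcome of the selecting comparison, so no test was made between them.

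**Figure D1:**
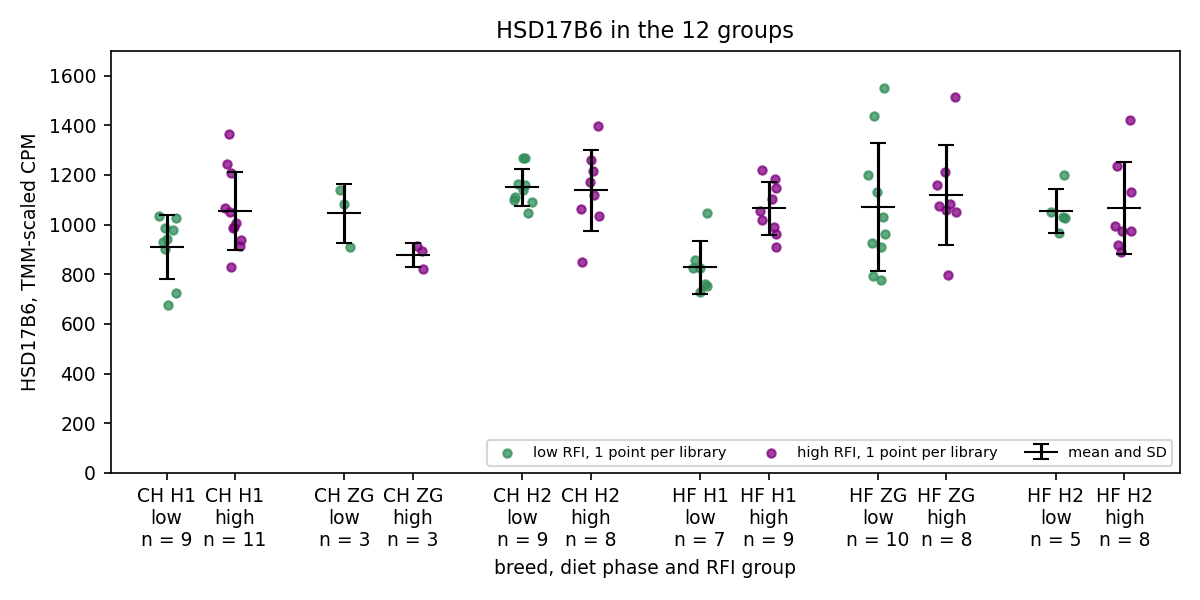
TMM-scaled CPM of HSD17B6 (vertical axis, from 0) in each library of the 12 groups (horizontal axis: breed, diet phase and RFI group, with the number of libraries), where points are libraries and bars are the mean with its SD. Low RFI steers of HF in H1 have the lowest mean, 828 CPM, and low RFI steers of CH in H2 the highest, 1149 CPM.

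With the RFI groups of a breed and phase put together, the means lay between 960 and 1144 CPM. In ascending order they were 960 ± 123 CPM in CH ZG (SD, n = 6), 961 ± 159 CPM in HF H1 (SD, n = 16), 989 ± 160 CPM in CH H1 (SD, n = 20), 1062 ± 149 CPM in HF H2 (SD, n = 13), 1092 ± 230 CPM in HF ZG (SD, n = 18) and 1144 ± 121 CPM in CH H2 (SD, n = 17). The widest gap between neighbours in this order, from CH H1 to HF H2, was 0.49 of the smaller of the 2 SDs. Sorting sets close means side by side, so these gaps do not speak to the ends of the order. Those ends, CH ZG and CH H2, are compared below.

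In the comparison from which the gene was chosen, HSD17B6 was lower in low RFI HF steers of H1. The 9 high RFI libraries ran from 910 CPM through a median of 1054 CPM to 1221 CPM (mean 1065 ± 105.4 CPM, SD, n = 9), against the 728 to 1046 CPM of the 7 low RFI libraries. Of the low RFI libraries, 6 lay below every high RFI library, and 1, of steer 1877, lay inside the high RFI range. The log2 fold change was -0.36 (SE 0.09), a level 0.778 of that in high RFI steers. Without the TMM factor it was -0.30 (SE 0.09). These values chose the gene and are given as a description.

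The other 5 comparisons of low with high RFI asked whether the gene differed between efficient and inefficient steers in libraries that the choice had not used, and HSD17B6 was called in none of them. They were fitted one at a time with edgeR's quasi-likelihood test, and a gene was called at a Benjamini-Hochberg adjusted p under 0.1 over all genes tested. In HF H1 this test called 0 of the 13025 genes tested, where DESeq2, the tool of the study, called 23. A lack of a call here therefore does not set these 5 comparisons apart from HF H1.

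In CH steers of H1, the same diet in the other breed, the level was lower in low RFI steers by less than the test required. The 9 low RFI libraries ran from 676 CPM through a median of 940 CPM to 1033 CPM (mean 910 ± 127 CPM, SD, n = 9), and the 11 high RFI libraries from 829 CPM through a median of 1004 CPM to 1363 CPM (mean 1054 ± 159 CPM, SD, n = 11). The groups overlapped, with 2 low RFI libraries below every high RFI library and 5 high RFI libraries above every low RFI library. The log2 fold change was -0.20 (SE 0.10, 95% interval -0.40 to 0.01, edgeR unadjusted p = 0.0556, adjusted p = 0.433), and 0.0155% of the genes tested were called in this comparison. An exact permutation test of the CPM, two-sided, gave p = 0.0399, or 0.199 after adjustment over the 5 RFI comparisons. The TMM factor differed between the groups too, with a median of 1.14 in low and 1.03 in high RFI libraries, and with total counts as the only scaling the log2 fold change was -0.10 (SE 0.08). On that scale the median over all genes tested was 0.10.

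In CH steers of ZG the sign was the opposite, in 3 steers against 3. The low RFI libraries stood at 910, 1083 and 1141 CPM (mean 1045 ± 120 CPM, SD, n = 3) and the high RFI libraries at 821, 895 and 913 CPM (mean 876 ± 48.5 CPM, SD, n = 3). Of the low RFI libraries 2 lay above every high RFI library, and the other lay within the high RFI range. The log2 fold change was 0.27 (SE 0.17, 95% interval -0.12 to 0.66, edgeR adjusted p = 0.415). The exact permutation test gave p = 0.200, where 3 against 3 cannot go below 0.1. edgeR called 0% of genes, with 1755 at an unadjusted p under 0.05, and DESeq2 called 167.

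In the remaining comparisons the group means were within 48 CPM of each other. In CH H2 the low RFI level of 1149 CPM stood beside 1138 ± 164 CPM in high RFI steers (SD, n = 8, 848 to 1395 CPM, median 1144 CPM), a log2 fold change of 0.02 (SE 0.11, 95% interval -0.20 to 0.25, edgeR adjusted p = 0.998). The low RFI steers lay entirely inside the high RFI range, with an SD of 75.8 CPM. In HF ZG the 10 low RFI libraries ran from 779 CPM through a median of 996 CPM to 1549 CPM (mean 1071 ± 259 CPM, SD, n = 10), and the 8 high RFI libraries from 796 CPM through a median of 1081 CPM to 1513 CPM (mean 1119 ± 200 CPM, SD, n = 8). Those groups overlapped almost fully, at a log2 fold change of -0.08 (SE 0.16, 95% interval -0.41 to 0.26, edgeR adjusted p = 1.00). In HF H2 the 5 low RFI libraries stood at 967, 1026, 1030, 1050 and 1200 CPM (mean 1055 ± 86.9 CPM, SD, n = 5) inside the range of the 8 high RFI libraries, 888 to 1421 CPM with a median of 982 CPM (mean 1067 ± 184 CPM, SD, n = 8). The log2 fold change was -0.02 (SE 0.14, 95% interval -0.32 to 0.28, edgeR adjusted p = 1.00).

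edgeR called 0% of genes in each of these 3 comparisons. At an unadjusted p under 0.05 there were 355 genes in CH H2, 261 in HF ZG and 435 in HF H2, and DESeq2 called 3, 2 and 3. The exact permutation p of HSD17B6 was 0.852, 0.673 and 0.900 in that order.

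One RFI effect fitted over the 74 libraries outside HF H1, beside breed and diet, was -0.05 on the log2 scale (SE 0.06, 95% interval -0.17 to 0.06, edgeR adjusted p = 1.00). edgeR called 0% of genes for this effect, with 701 at an unadjusted p under 0.05, and DESeq2 called 0. The RFI effect of HSD17B6 was not shown to differ among the 5 comparisons (edgeR interaction test, p = 0.392, adjusted p = 0.822), a test by which 0.00724% of genes were called.

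Across diets, the level of HSD17B6 was higher in H2 than in H1 in CH steers, on the TMM scale and not as a share of all counts. In HF steers edgeR called it higher in ZG than in H1 on that scale, but the H1 libraries were those that chose the gene. The permutation test did not call this HF difference (adjusted p = 0.193). The edgeR call was lost without the 6 libraries that stood apart from the rest, described below (log2 fold change 0.13, edgeR adjusted p = 0.222). Of those 6, 4 were HF ZG libraries. The diet comparisons were contrasts of 1 edgeR fit of all 12 groups, each the mean of the low and high RFI groups. In CH steers the 20 libraries of H1 ran from 676 CPM through a median of 985 CPM to 1363 CPM, and the 17 libraries of H2 from 848 CPM through a median of 1137 CPM to 1395 CPM. The ranges overlapped, with 3 H1 libraries below every H2 library and 1 H2 library above every H1 library. The log2 fold change was 0.22 (SE 0.07, edgeR adjusted p = 0.00648), a 1.17-fold higher level, and a permutation test gave p = 0.00235 (0.0204 adjusted over the 9 diet and breed comparisons). Neither test took account of the 4 CH steers sampled in both phases. In this comparison 66.6% of all genes tested were called and 68.6% changed by more than HSD17B6 in absolute log2 terms, so its call was shared by most genes. Of the genes called, 52.3% were higher in H2, or 17.7% with total counts as the only scaling.

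In HF steers the 16 libraries of H1 ran from 728 CPM through a median of 976 CPM to 1221 CPM, and the 18 libraries of ZG from 779 CPM through a median of 1068 CPM to 1549 CPM. Of these, 3 ZG libraries lay above every H1 library and 3 H1 libraries below every ZG library. The log2 fold change was 0.22 (SE 0.08, edgeR adjusted p = 0.0129), against 58% of all genes called, and the permutation test gave p = 0.0658 (adjusted p = 0.193). From H1 to H2, whose 13 libraries ran from 888 CPM through a median of 1026 CPM to 1421 CPM, it was 0.18 (SE 0.08, edgeR adjusted p = 0.0667), against 61.9% called, with a permutation p of 0.0917 (adjusted p = 0.193). This call was lost without the H2 low RFI library of steer 2071 (log2 fold change 0.15, adjusted p = 0.132). The 16 H1 libraries of HF are those that chose the gene, so the tests of these HF differences are not independent of that choice. In low RFI HF steers the means went from 828 CPM in H1 to 1071 CPM in ZG and 1055 CPM in H2. In high RFI HF steers they went from 1065 CPM to 1119 CPM and 1067 CPM. The difference by phase was larger in the low RFI group, whose H1 libraries were the low side of the selecting comparison. In CH, whose libraries did not choose the gene, the means from H1 to H2 went from 910 to 1149 CPM in low RFI steers. In high RFI CH steers they went from 1054 to 1138 CPM. From H1 to ZG the CH mean was higher in low RFI steers (910 to 1045 CPM) and lower in high RFI steers (1054 to 876 CPM). The source of these splits by RFI group was not tested.

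All 3 differences by phase that edgeR called turned around when the total count was the only scaling. On that scale the means were 1063 ± 117 CPM in H1 and 1030 ± 120 in H2 of CH (SD, n = 20 and 17), and 1074 ± 156 in H1, 997 ± 176 in ZG and 1040 ± 131 in H2 of HF (SD, n = 16, 18 and 13). The log2 fold changes became -0.04 for CH H2 against H1 (adjusted p = 0.639), -0.08 for HF ZG against H1 (adjusted p = 0.338) and -0.03 for HF H2 against H1 (adjusted p = 0.792), all by edgeR. The median over all genes fell with them, to -0.23, -0.29 and -0.20. A change of scaling moves all genes of a library together, so the gap from HSD17B6 to the median gene is nearly fixed. HSD17B6 was higher relative to the median gene, and its share of all counted reads was not higher. The median TMM factor was 1.06 in CH H1, 0.90 in CH H2, 1.11 in HF H1, 0.94 in HF ZG and 0.99 in HF H2. The 20 most abundant genes of a library took a median of 32.9% of its counts in CH H1, 38.4% in CH H2, 32.4% in HF H1, 36.0% in HF ZG and 36.1% in HF H2.

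**Figure D2:**
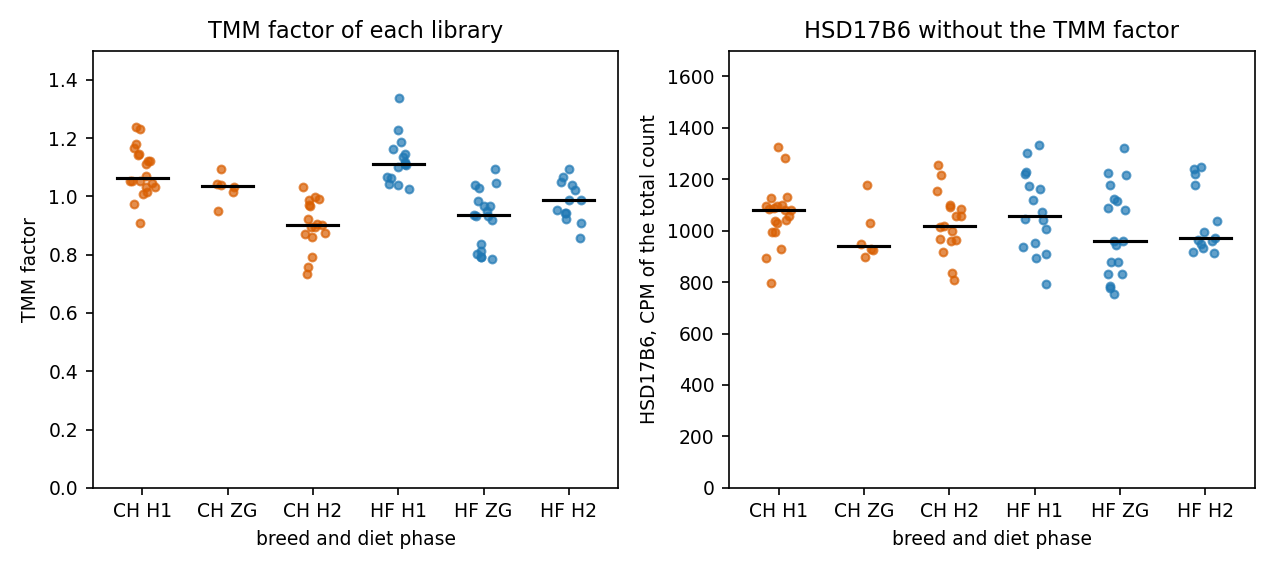
TMM factor of each library (left) and HSD17B6 as CPM of the total count, without that factor (right), both from 0, by breed and diet phase, with the median as a bar. TMM factors are higher in H1 (medians 1.06 and 1.11) than in H2 (0.90 and 0.99), and the unscaled HSD17B6 values overlap across all 6 combinations.

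The other diet comparisons gave no call. In CH steers the 6 ZG libraries ran from 821 CPM through a median of 911 CPM to 1141 CPM, inside the range of the H1 libraries, and ZG minus H1 was -0.03 (SE 0.10, 95% interval -0.24 to 0.17, edgeR adjusted p = 0.840) where 17.8% of genes were called. From ZG to H2 in CH steers the log2 fold change was 0.26 (SE 0.11, 95% interval 0.05 to 0.47, edgeR unadjusted p = 0.0175, adjusted p = 0.208, 2.82% called), with 8 of 17 H2 libraries above every ZG library. Here the tests parted: the exact permutation test of the CPM gave p = 0.00453, or 0.0204 after adjustment over the 9 comparisons. With total counts as the only scaling this difference was 0.07 (SE 0.09), beside a median over all genes that lay below 0. In HF steers H2 minus ZG was -0.05 (SE 0.08, 95% interval -0.21 to 0.12, edgeR adjusted p = 0.811, 7.24% called).

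**Figure D3:**
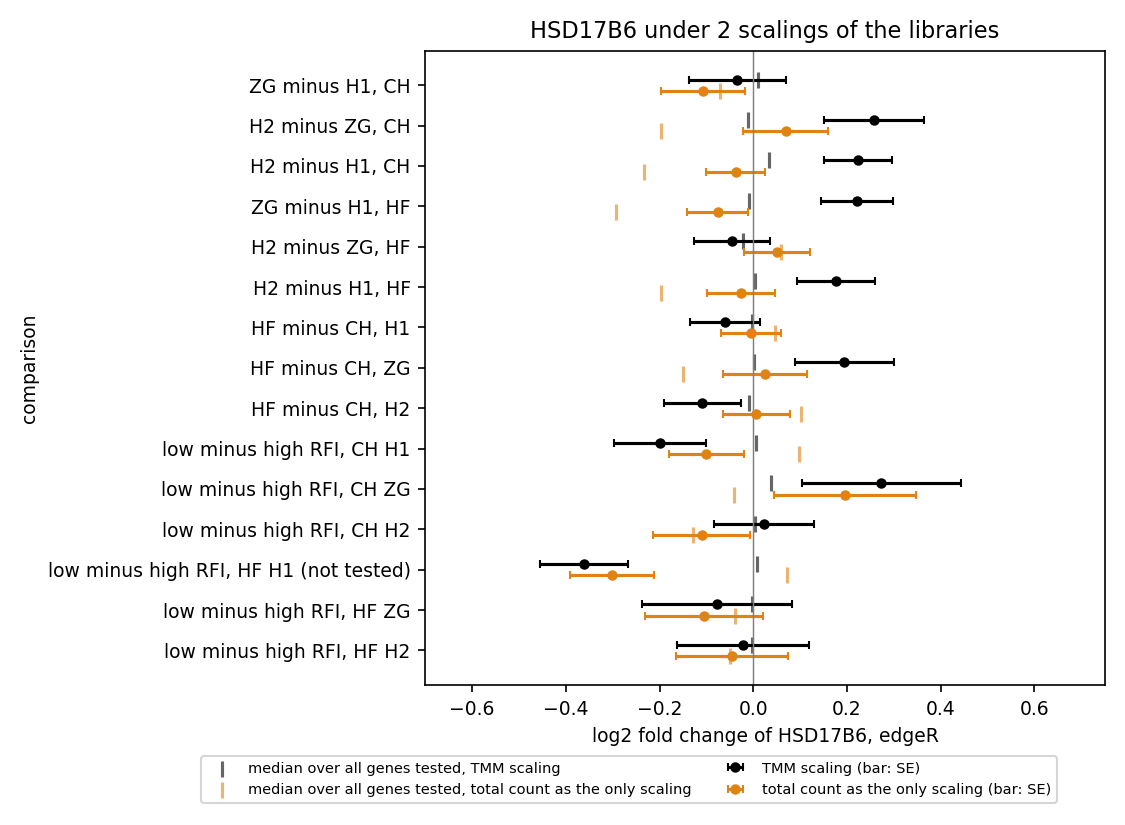
Log2 fold change of HSD17B6 from edgeR (horizontal axis, points with their SE) in 15 comparisons (vertical axis) with TMM scaling and with the total count as the only scaling, where upright ticks mark the median over all genes tested. CH H2 minus H1 moves from 0.22 to -0.04 and HF ZG minus H1 from 0.22 to -0.08, while low minus high RFI in HF H1, which chose the gene, stays at -0.36 and -0.30.

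No difference between the breeds in HSD17B6 was called in any phase. HF minus CH was -0.06 in H1 (SE 0.07, 95% interval -0.21 to 0.09, edgeR adjusted p = 0.961), where 2.12% of genes were called. It was 0.19 in ZG (SE 0.11, 95% interval -0.02 to 0.40, edgeR adjusted p = 0.792, 0.0645% called), where 6 of 18 HF libraries lay above and 3 below all 6 CH libraries. It was -0.11 in H2 (SE 0.08, 95% interval -0.27 to 0.06, edgeR adjusted p = 0.883, 0.81% called). The permutation p-values, adjusted over the 9 diet and breed comparisons, were 0.687, 0.296 and 0.193. With total counts as the only scaling HF minus CH in ZG was 0.03 (SE 0.09).

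Whether the diet differences of CH and HF steers differed was tested on that difference itself. The breed difference in ZG minus H1 was 0.26 (SE 0.13, edgeR p = 0.0508, adjusted p = 1.00), that in H2 minus ZG was -0.30 (SE 0.13, p = 0.0262, adjusted p = 0.860), and that in H2 minus H1 was -0.05 (SE 0.11, adjusted p = 1.00). No call resulted, and edgeR called 0% of all genes in each, with 418, 761 and 330 genes at an unadjusted p under 0.05 and 1, 40 and 0 called by DESeq2. Each of the first 2 rests on the 6 CH libraries of ZG. With total counts as the only scaling these 2 were 0.03 (SE 0.11) and -0.02 (SE 0.11). Without the 6 libraries that stood apart, described below, they were 0.16 (SE 0.12) and -0.23 (SE 0.13).

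Some steers gave libraries in more than 1 phase, which shows the change within an animal. Of 73 steer numbers, 14 recurred within a breed, and 6 of those 14 steers were in different RFI groups in different phases. All 4 CH steers with both H1 and H2 were higher in H2: steer 1100 went from 940 to 1034 CPM, 1320 from 915 to 1063 CPM, 364 from 937 to 1118 CPM, and 307 from 829 to 1092 CPM. Their log2 ratios lay between 0.14 and 0.40. Of the 4 HF steers with both phases, 2 were higher in H2, 2220 from 762 to 967 CPM and 5632 from 752 to 888 CPM, and both had been in the low RFI group of H1. The other 2, from the high RFI group of H1, went from 1221 to 1200 CPM (steer 2071) and from 1054 to 992 CPM (steer 2101). From H1 to ZG the level was higher later in 3 of 6 steers, with log2 ratios from -0.32 to 0.36, and from ZG to H2 in 3 of 4 steers, from -0.04 to 0.40. As a share of the total count, without the TMM factor, the later value was the higher one in 2 of 4 CH and 1 of 4 HF steers from H1 to H2, in 0 of 6 steers from H1 to ZG and in 4 of 4 from ZG to H2. No test was made on so few pairs.

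**Figure D4:**
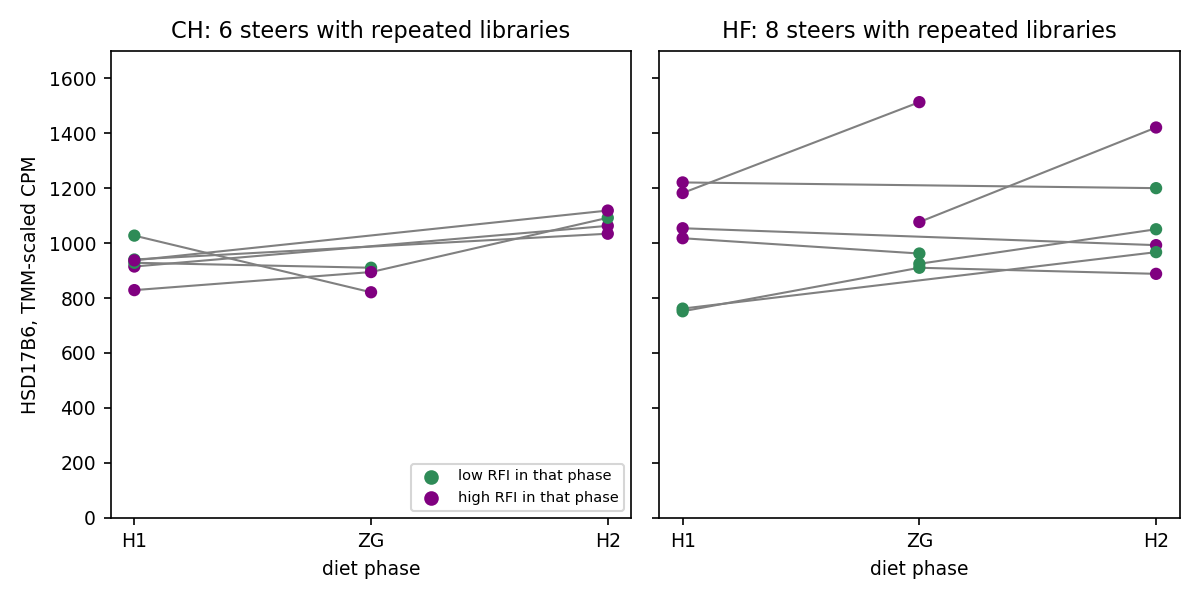
TMM-scaled CPM of HSD17B6 (vertical axis, from 0) by diet phase for the 6 CH and 8 HF steers with libraries in more than 1 phase, where a line joins the libraries of 1 steer and colour gives the RFI group in that phase. All 4 CH steers with H1 and H2 libraries are higher in H2, against 2 of 4 HF steers, and without the TMM factor 2 of those 4 CH steers are.

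On the TMM scale, several of the highest values came from libraries that stood apart from the rest. For 6 libraries the median correlation of log2 CPM with the other libraries was under 0.93, the range over all libraries being 0.887 to 0.970. They were 1 HF low RFI and 3 HF high RFI libraries of ZG, 1 HF high RFI library of H2 and 1 CH low RFI library of H2. Their HSD17B6 levels ranked 1, 2, 4, 7, 14 and 38 of the 90, and their TMM factors ran from 0.76 to 0.86. As CPM of the total count they stood, in that order, at 1226, 1216, 1220, 960, 959 and 833. The highest of the 90 libraries had 1335 on that scale. Without these 6 libraries HF ZG minus H1 fell to 0.13 on the log2 scale and was no longer called (edgeR adjusted p = 0.222). CH H2 minus H1 was then 0.22 (adjusted p = 0.00414). HF H2 minus H1 was 0.15 (adjusted p = 0.0965).

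The genes whose levels followed HSD17B6 most closely over the 90 libraries were ENSBTAG00000003774 (Spearman's rho 0.67) and ENSBTAG00000016149 (rho 0.66), which also ranked first and second once the mean of each group was taken off (rho 0.67 and 0.60). The most opposed was ENSBTAG00000003754 (rho -0.61, and -0.55 within groups). Names were known here for 327 of the 13944 other genes, and none of the 10 closest genes had one. Of the named genes the closest was PRDX6, a peroxiredoxin that reduces lipid peroxides (rho 0.56, rank 44 of all genes). After it came ASNSD1 (0.53), the sorting nexin SNX24 (0.53), the small GTPase RAB4A (0.53) and ITM2B (0.52, rank 146). The most opposed named genes were RHBDF1, an inactive rhomboid protein (rho -0.59), the cofilin phosphatase SSH1 (-0.57), KBTBD11 (-0.54), SSH3 (-0.53) and G0S2, an inhibitor of fat breakdown (-0.53). Within groups PRDX6 was again the closest named gene (rho 0.47), followed by DLD, PGRMC1, FGG and LBP (0.44, 0.43, 0.43 and 0.43), and RHBDF1 the most opposed (-0.46). No gene passed an absolute rho of 0.7, and over all genes the middle 90% lay between -0.45 and 0.45. The libraries share TMM factors and the 6 that stood apart, so these values describe the table and carry no p. The names are those of genes that the study called for RFI in these libraries. RAB4A and DLD, like HSD17B6, were among its genes lower in low RFI HF steers of H1, whose libraries are among the 90.

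Other enzymes of steroid and bile acid handling could be followed only where the study's list of genes gave a name. Of 134 symbols in lists of relatives, steroid, bile acid and retinoid enzymes, liver transcription factors and cell type markers, 4 were matched, and none of the HSD17B family, RDH16, SDR9C7 or marker genes was. The study's list holds genes it called for RFI in these libraries. FGA and FGG, chains of fibrinogen, and APOC3, an apolipoprotein, are secreted by hepatocytes. They were picked after their values were seen, and their median levels over the 90 libraries were 12026 CPM, 12706 CPM and 1623 CPM. The paper places FGG, with HP and LBP among others, in acute phase response signalling, and levels of HP and LBP by phase are not given here. With TMM scaling FGA and FGG were called higher in 2 of the 3 comparisons in which HSD17B6 was. In CH H2 against H1, where 66.6% of all genes were called, they rose by 0.34 and 0.51 on the log2 scale (edgeR adjusted p = 0.0353 and 0.00375). In HF ZG against H1, where 58% of all genes were called, they rose by 0.40 each (edgeR adjusted p = 0.0215 and 0.0375). APOC3 was at 0.17 and 0.21 without a call. None of the 3 was called in HF H2 against H1, where 61.9% of all genes were. With total counts as the only scaling none was called in these comparisons. Their part in the HSD17B6 differences was not tested. Of the 23 symbols of the steroid list 2 were matched, CYP3A5 and UGT2B15, and their calls below stand beside 66.6% of all genes called in CH H2 against H1, 17.8% in CH ZG against H1, 58% in HF ZG against H1 and 61.9% in HF H2 against H1. CYP3A5, a cytochrome P450 that hydroxylates steroids, went from 427 ± 92.5 CPM in CH H1 (SD, n = 20) to 652 ± 138 CPM in CH H2 (SD, n = 17) and rose by 0.64 on the log2 scale (SE 0.11, edgeR adjusted p = 1.22e-06). In HF it rose by 0.78 from H1 to ZG (SE 0.12, adjusted p = 1.32e-07) and by 0.45 from H1 to H2 (SE 0.13, adjusted p = 0.00215). UGT2B15, which glucuronidates androgens, rose from H1 to ZG by 0.49 in CH (SE 0.17, adjusted p = 0.0530) and 0.52 in HF (SE 0.13, adjusted p = 0.000684). With total counts as the only scaling, CYP3A5 was still called in these 3 comparisons, at 0.37, 0.46 and 0.23, and UGT2B15 was called in neither, at 0.42 (adjusted p = 0.108) and 0.20 (adjusted p = 0.155).

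NR0B2, the receptor that represses bile acid synthesis, fell from H1 in the same comparisons, by 0.91 in CH H2 (SE 0.25, adjusted p = 0.00129), by 1.02 in CH ZG (SE 0.37, adjusted p = 0.0637) and by 1.29 in HF ZG (SE 0.26, adjusted p = 3.87e-05). In HF H2 NR0B2 fell by 1.12 (SE 0.29, adjusted p = 0.00103). ONECUT1, a hepatocyte transcription factor, fell by 0.76 in CH H2 (SE 0.13, adjusted p = 1.44e-06) and by 0.61 in HF ZG (SE 0.13, adjusted p = 0.000139). It also fell by 0.62 in CH ZG (SE 0.19, adjusted p = 0.0299) and by 0.29 in HF H2 (SE 0.15, adjusted p = 0.0923). The shares of all genes called given above stand beside these calls too. Both genes were low, with medians over the 90 libraries of 5.32 and 13.7 CPM. NR0B2 and ONECUT1 were called in the same direction in these comparisons with total counts as the only scaling. None of the 4 genes was called between breeds in any phase (edgeR, lowest adjusted p = 0.381, for ONECUT1 in H1).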

How the data were processed

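Liver RNA of 90 biopsies was sequenced as single-end reads. The authors trimmed reads with cutadapt, aligned them to UMD3.1 with STAR (version 2.5.3a per the processing notes) and deposited raw counts per Ensembl gene, with no normalization. Trimming, alignment and counting could not be varied here.

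Libraries were grouped by the breed, diet and RFI group of their labels. Counts were scaled by TMM, and CPM is the count divided by the total count times the TMM factor. edgeR 4.0.16 (limma 3.58.1, R 4.3.3) was run on all genes kept by filterByExpr, with robust quasi-likelihood fits, and a gene was called where its p, adjusted by Benjamini-Hochberg, was under 0.1. Each RFI comparison was fitted alone, as in the study. Diet and breed comparisons were contrasts of the 12-group fit. The SE is the absolute log2 fold change divided by the square root of F. Two-sided permutation tests of CPM were exact where a group held fewer than 10 libraries and otherwise drew 100000 arrangements (Python 3.11.15, numpy 2.4.6). The scripts were tested on simulated data.

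Steer numbers in the titles give 18 pairs of libraries, from 14 steers, within a breed. The deviations of paired libraries from their group means correlated at a median of 0.25 (range -0.42 to 0.50, 14 of 18 over 0.1), and a fit with the steer as a block is among the alternatives. Those were DESeq2 1.42.0, its size factors, other filters, a threshold of 0.05, limma-voom, fits of other sets of libraries and, chosen after seeing the data, total counts as the only scaling and a fit without 6 libraries. Where steers were sampled once, p-values measure the spread between animals.

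Genes beside HSD17B6 were chosen by Spearman's rho with it, overall and within groups, or as members of pathway lists. Of the 5 highest and the 5 lowest of all genes, at most 2 identifiers in a direction are shown. Those shown with names are the highest or lowest by rho among the 327 genes with names. FGA, FGG and APOC3 were picked outside the lists, after their values were seen. The gene, the lists and the tests were chosen with earlier results of these data known. Names came from 352 identifiers that the study named, and no table used here pairs the others with symbols.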

Additional observations from a re-analysis of the deposited data

Results flagged for a closer look

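In low RFI HF steers of H1, 1 of the 7 libraries, that of steer 1877, stood far above the others on the TMM scale. It had 1046 CPM of HSD17B6, with the next at 858 CPM. The gap was 0.590 of the range of the group, just past the limit of 0.568 set for a group of 7 libraries, which is why it is listed. The limit is higher in smaller groups. In low RFI HF steers of H2 (n = 5) the highest library left a gap of 0.642, which did not pass the limit of 0.71. Both ends of each group of 5 to 10 libraries were checked. The library's TMM factor was 1.11, the same as the group's median, and its median correlation with the other libraries was 0.962. Without the TMM factor it stood at 1161 CPM, and the gap took up less of the range. The next was then steer 5632 at 1005 CPM, with a TMM factor of 1.34, and the lowest was steer 2220 at 794 CPM. The group belongs to the comparison from which the gene was chosen, so these values are a description with no test.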

How the results depend on the processing

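With total counts as the only scaling, the log2 fold change changed sign for CH H2 minus H1 (-0.038), HF ZG minus H1 (-0.076), HF H2 minus H1 (-0.026), HF H2 minus ZG (0.050), HF minus CH in H2 (0.0061), the breed difference in H2 minus H1 (0.012) and low minus high RFI in CH H2 (-0.11). Without the 6 libraries that stood apart it changed sign for HF H2 minus ZG (0.023) and for low minus high RFI in CH H2 (-0.0046) and HF H2 (0.058), and HF ZG minus H1 (0.13) lost its call. HF H2 minus H1 lost its call at a threshold of 0.05 (0.18), with DESeq2 size factors (0.16), with at least 10 counts in every library (0.11) and fitted alone (0.14). Low minus high RFI in CH H2 changed sign with at least 10 counts in every library (-0.0018) and in HF H2 with limma-voom quality weights (0.028), a fit that also called CH H2 minus ZG (0.23, adjusted p = 0.0529). None of the RFI values that changed sign was called in any fit. The causes were not tested.

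Leaving out 1 library of the small groups at a time, HF H2 minus H1 ran from 0.15 to 0.19 and CH ZG minus H1 from -0.068 to 0.011, each on the log2 scale. In a limma-voom fit that took each steer for a replicate block, CH H2 minus H1 was 0.23 (adjusted p = 0.00421), HF ZG minus H1 0.20 (adjusted p = 0.0213) and HF H2 minus H1 0.17 (adjusted p = 0.0638), and the block changed no call of HSD17B6. Without the libraries of steer number 1797, which stands under both breeds, no call changed. HSD17B6 had at least 8284 reads in each library, so the spread between steers and the scaling, not counting error, limit these values, and 3 steers a group in CH ZG cannot reach an exact p under 0.1. The number of genes called moved by more than 1.5 times in CH ZG minus H1 (2476, from 1164 to 5274 over the alternatives), CH H2 minus ZG (393, 80 to 4489), HF ZG minus H1 (8089, down to 4671), HF H2 minus ZG (1010, 419 to 3871), HF minus CH in H1 (295, 161 to 669), ZG (9, 0 to 73) and H2 (113, 40 to 298), and low minus high RFI in CH H1 (2, 1 to 159). Where edgeR called 0, up to 167 were called in CH ZG, 5 in CH H2, 2 in HF ZG, 3 in HF H2 and 40 for a breed difference. With total counts as the only scaling, the share of called genes that were higher went from 60.8% to 45.3% in CH ZG minus H1, 64.9% to 6.49% in CH H2 minus ZG, 49.7% to 10.7% in HF ZG minus H1, 53.7% to 83.9% in HF H2 minus ZG, 49.8% to 22.3% in HF H2 minus H1, and for HF minus CH from 75.6% to 88.5% in H1, 33.3% to 11.1% in ZG and 48.7% to 86.2% in H2.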

Other observations

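Steer number 1797 stood under both breeds, in a CH low RFI library of H1 and an HF low RFI library of H2, at 1033 CPM and 1030 CPM of HSD17B6.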
